A study of Mus musculus with 4 samples.

Results

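The subject here is the difference between zymogenic and mucous neck cells in the stomach of mice without MIST1, a basic helix-loop-helix (bHLH) transcription factor that Bhlha15 encodes. The comparison takes 2 of the 4 arrays of the study, 1 of MIST1 knockout zymogenic cells and 1 of MIST1 knockout neck cells, here called MIST1-null. The other 2 arrays, of wild-type zymogenic and neck cells, are given beside them. All 4 groups came from the adult stomach of mice on a C57BL/6 background, and the labels give no closer age. The cells were cut from frozen sections of the gastric corpus by laser capture, in which a laser lifts chosen cells off the slide. Per the labels, RNA of several dissections and several animals was pooled to about 100 ng, amplified and hybridised to Affymetrix Mouse Gene 1.0ST arrays. The series text counts 5 MIST1-null and 4 wild-type mice with 2 capture caps each, without saying which of them made up each pool. The labels name no cell type to which the knockout was limited, and both MIST1-null arrays carry the same genotype.

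Each group was 1 array, so no difference here has a replicate check, and none carries a p-value or an error. Levels are array intensities, and differences are log2 values written as zymogenic minus neck, so that 1 is a 2-fold difference. Values were read for 19938 genes named by probe sets with exactly 1 gene symbol. A gene was kept where the higher of its MIST1-null values reached the median of all such probe sets, an intensity of 43.7, which left 11322 genes, called detectable here by this rule of size. This filter did not use the difference, although some of the genes named later were ranked by it. A gene that is low in one array passes only through the other, so counts over detectable members are descriptions, and the median over all measured members of a list is given beside that over the detectable ones. Where the lower value lay under 43.7, the size of a difference is not firm, and for genes at least 2-fold apart the MIST1-null difference with 32 added to both intensities is given with it.

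In the gland of the gastric corpus, mucous neck cells make gland mucin in the middle of the unit, and zymogenic (chief) cells at its base store pepsinogen and other digestive proteins in large granules. Zymogenic cells are held to arise from neck cells as these move down the gland, losing mucus and building rough endoplasmic reticulum and granules. MIST1 is known for enlarging and arranging the secretory apparatus at the end of that path, and the comparison asks which differences between both cell types were present without it. Zymogenic cells were taken below the signal of the lectin GS-II, where no parietal cell outline was seen. That lectin binds the sugar cap of neck cell mucus, so the mucus genes stand close to how the cells were chosen.

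Bhlha15 itself read 20.2 in MIST1-null neck and 22 in MIST1-null zymogenic cells, against 59.7 and 149.8 in the wild-type cells. Both MIST1-null values lay under the median level and under both wild-type values, as the labels have it. The difference between cell types was 0.12 in MIST1-null and 1.33 in wild-type mice. No source used here says where the probes lie relative to the deleted part of the gene.

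The MIST1-null arrays differed by 2-fold or more at about as many genes in each direction. At least 2-fold higher in zymogenic cells were 555 of the 11322 detectable genes, or 4.90%, and at least 2-fold lower were 543, or 4.80%. These shares are the background for every count of list members at 2-fold given below. In a short list a count of 0 is near that background and no result about its members. The median over all detectable genes was 0.05, and 53.9% of them lay above 0. Of the 555 higher genes, 381 read under the median level in neck cells, and of the 543 lower genes, 317 did so in zymogenic cells. Among the 8298 genes that reached the median in both arrays, 174 were at least 2-fold higher and 226 lower. With 32 added to all intensities the counts were 215 and 222. Larger steps were rarer, with 114 genes at least 4-fold higher and 95 lower, and 6 at least 16-fold higher and 11 lower.

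**Figure D1:**
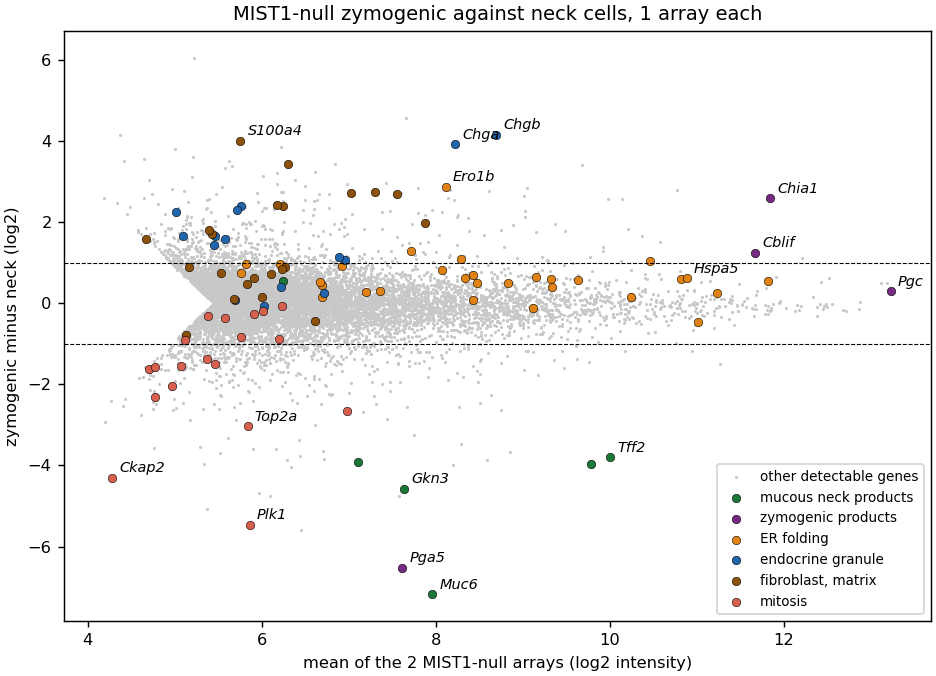
Each point is 1 detectable gene, with the mean log2 intensity of both MIST1-null arrays on the horizontal axis and the log2 difference, zymogenic minus neck, on the vertical axis. Coloured points are members of 6 gene lists and dashed lines mark 2-fold. Mucous neck products other than Aqp5 (0.56) lie low, with Muc6 lowest at -7.17, and Chia1 lies at 2.59 at the right. The ER folding genes run from -0.46 to 2.88, and 28 of 30 lie above 0 as deposited (Ssr1, at 0.08, crosses 0 with median centring).

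Neck cell products held the lowest difference of the comparison, that of Muc6. Of 6 listed products, all detectable, 5 were at least 2-fold lower in MIST1-null zymogenic cells, and the median was -3.94. Muc6, the gland mucin, read 2980 in neck and 20.7 in zymogenic cells, and 2511 and 26.7 in the wild-type pair. Its difference was -7.17, or -5.84 with 32 added. Tff2, the trefoil peptide packed with that mucin, read 3827 and 277 in MIST1-null cells and 3088 and 1320 in wild-type cells. The neck arrays were close for Tff2, and the MIST1-null zymogenic array was the lowest of the 4, so that its difference was -3.79 in MIST1-null and -1.23 in wild-type mice. Whether the pairs differ for Tff2 was not tested. Agr2, a disulfide isomerase that mucins need for folding, read 3472 and 223 against 2979 and 273 in wild-type cells, a difference of -3.96. Gkn3, a gastrokine of neck cells, read 967 and 40.7, a difference of -4.57, or -3.78 with 32 added. A4gnt, which adds the terminal sugar of gland mucin, read 536 and 35.6, a difference of -3.91, or -3.07 with 32 added. Aqp5, a water channel, stood apart from the other products at 62.5 and 92.0, a difference of 0.56.

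Many enzymes that build mucin sugars were on the neck side too, but the list as a whole was split. Of 43 measured members 35 were detectable, 12 at least 2-fold lower and 3 higher, with a median of -0.15, or -0.10 over all 43. The lower ones included several enzymes that start a mucin sugar chain on serine or threonine. Galntl6 read 240 in neck and 7.14 in zymogenic cells, a difference of -5.07, or -2.79 with 32 added. Galnt7 read 872 and 182, a difference of -2.26, Galnt12 had -1.74 and Galnt6 had -1.95, or -0.997 with 32 added. C1galt1, which adds the next galactose, read 597 and 224, a difference of -1.42. The branching enzymes Gcnt3 and Gcnt1 read 329 and 20.01, and 249 and 20.6, with differences of -4.04 and -3.60 that became -2.80 and -2.42 with 32 added. Chain initiation and branching were thus both represented among the genes with higher neck values. B4galt1, a galactosyltransferase, read 216 and 68.1 in MIST1-null cells and 176 and 150 in wild-type cells, so that its difference was -1.67 in the former and -0.23 in the latter. Fut4, a fucosyltransferase, also had the smaller difference in wild-type cells, at 178 and 64.3 against 92.6 and 89.0, or -1.47 and -0.06. For B4galt1 the MIST1-null zymogenic array was the low one, while for Fut4 the MIST1-null neck array was the high one. On the other side, the sialyltransferase St3gal6 read 331 in neck and 725 in zymogenic cells, a difference of 1.13.

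**Figure D2:**
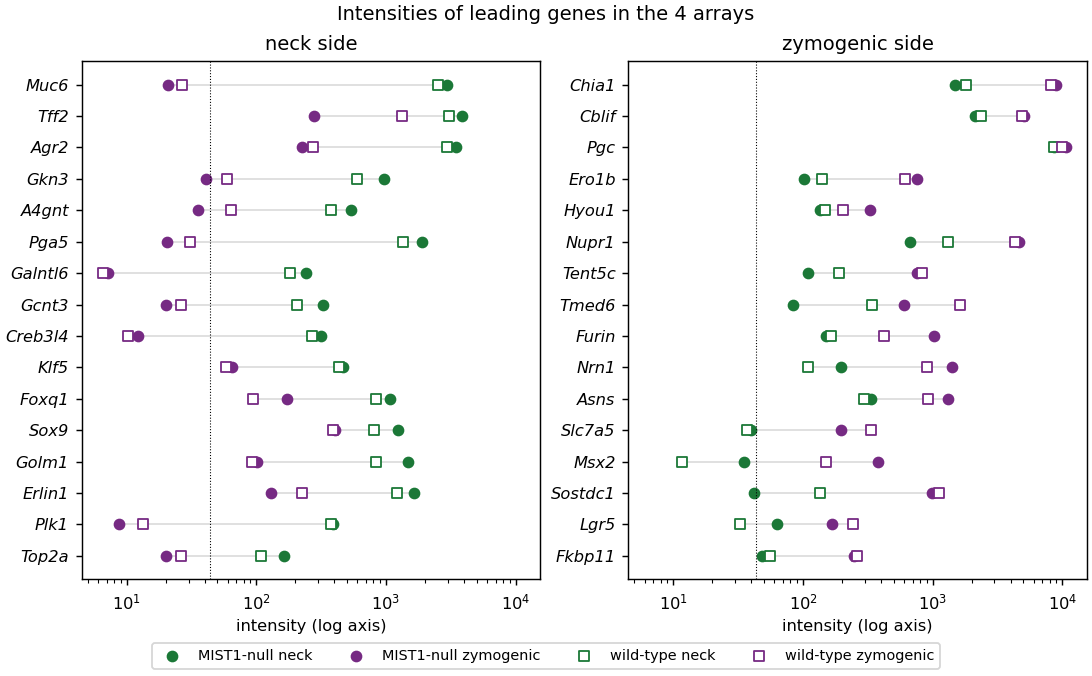
Intensities on a log axis for 16 genes higher in neck cells (left) and 16 genes higher in zymogenic cells (right), with filled circles for MIST1-null and open squares for wild-type arrays, green for neck and purple for zymogenic cells. The dotted line marks the median level of 43.7. The genes were picked by hand for the side they lie on, so the parting of the MIST1-null colours is no result. Pgc sits between 8672 and 10638 in all 4 arrays, with both zymogenic values above both neck values.

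The zymogenic products did not form a block. Of 6 measured members 4 were detectable, with a median of 0.77, or 0.31 over all 6. Chia1, the acidic chitinase of chief cell granules, read 1494 in MIST1-null neck and 9022 in MIST1-null zymogenic cells, a difference of 2.59. Cblif, gastric intrinsic factor, read 2120 and 5029, a difference of 1.25. The wild-type pair gave 2.18 for Chia1 and 1.04 for Cblif. Pgc, pepsinogen C, read 8672 and 10638, a difference of 0.29, and lay near the top of the range of the arrays, where a difference can be hidden. Pga5, a further pepsinogen gene, lay on the neck side at 1884 and 20.4, a difference of -6.53, or -5.19 with 32 added, and the wild-type arrays read 1350 and 31.0. Cym and Lipf were under the median level in all 4 arrays.

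Enzymes best known from the exocrine pancreas, the organ in which MIST1 is most studied, showed a mixed picture. Of 15 measured members 10 were detectable, 3 at least 2-fold higher and 0 lower, beside 4.90% and 4.80% of all detectable genes. The median was 0.43, or 0.37 over all 15. Pnliprp1, a lipase-related protein, read 28.7 in MIST1-null neck and 193 in zymogenic cells, a difference of 2.74, or 1.89 with 32 added. Cel, bile salt-activated lipase, and Cpb1, a carboxypeptidase, had differences of 2.05 and 1.48, and both read under 43.7 in neck cells. With 32 added they had 1.07 and 0.79, the latter under 2-fold. Clps, colipase, read 7831 and 11106, a difference of 0.50. Spink1, the trypsin inhibitor of exocrine granules, read 51.9 and 36.0 in MIST1-null cells but 38.7 and 319 in wild-type cells. Its 1 high value was thus that of the wild-type zymogenic array, and its difference was -0.53 in MIST1-null and 3.04 in wild-type mice.

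Genes for folding and moving secretory proteins in the endoplasmic reticulum (ER) were higher in MIST1-null zymogenic cells by small steps that ran nearly all one way. All 30 listed members were detectable, and 28 lay above 0 as deposited, of which Ssr1, at 0.08, crossed 0 when each array was centred on its median. At least 2-fold higher were 4 of the 30 and 0 were lower, beside 4.90% and 4.80% of all detectable genes. The median was 0.59, against 0.05 over all detectable genes, and it was 0.49 in the wild-type pair. Ero1b, an oxidase that makes disulfide bonds, read 102 in neck and 753 in zymogenic cells, a difference of 2.88, with 141 and 608 in wild-type cells. Hyou1, an ER chaperone, read 135 and 329 against 148 and 204, or 1.28 and 0.46. Sec61a1, the channel of the translocon, read 216 and 458, a difference of 1.08, and Dnajc3, a co-chaperone, read 982 and 2031, a difference of 1.05. The abundant chaperones differed by less than 2-fold. Hspa5, also known as BiP, read 1525 and 2350, a difference of 0.62, Canx had 0.61, Calr 0.58 and Hsp90b1 0.54. Sensors and factors of the unfolded protein response lay in the same range, with Xbp1 at 260 and 402, a difference of 0.63, Ern1 at 0.75, Atf6 at 0.31 and Atf4 at 0.96. The members below 0 were Pdia3, at 2422 and 1761, a difference of -0.46, and Pdia4 at -0.12.

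Promoters of this list are shown because nearly all its members lay on one side and some of them hold a known sequence. The ER stress response element is CCAAT, 9 further bases and CCACG, searched on both strands in windows from 250 bases before to 50 after each start (RefSeq, GRCm38.p6). Of the 30 ER folding genes, 25 had a window and 8 of these held the element, or 32%. Over all genes of that table it was in 37 of 27025, or 0.137%, and among detectable genes with a window in 14 of 9012, or 0.155%. All 8 genes lay above 0 in the MIST1-null pair, from 0.39 for Pdia6 to 2.88 for Ero1b. So did 28 of all 30 list members as deposited, so this count does not set genes with the element apart. The list was chosen by function, so its share of the element is no result of the comparison. The stretches below run 5′ to 3′ on the strand of the gene, with the element in capitals. In Dnajc3, Hspa5 and Canx it reads forward, and in Ero1b and Creld2 it reads in reverse.
Ero1b, chr13:12565662-12565720, plus strand: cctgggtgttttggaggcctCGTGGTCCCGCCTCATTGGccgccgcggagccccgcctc
Dnajc3, chr14:118937807-118937865, plus strand: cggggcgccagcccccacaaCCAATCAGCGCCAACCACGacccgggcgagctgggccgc
Creld2, chr15:88819500-88819558, plus strand: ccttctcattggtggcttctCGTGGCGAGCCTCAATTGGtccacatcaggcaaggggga
Hspa5, chr2:34772005-34772063, plus strand: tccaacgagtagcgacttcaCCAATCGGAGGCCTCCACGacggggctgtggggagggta
Canx, chr11:50325780-50325838, minus strand: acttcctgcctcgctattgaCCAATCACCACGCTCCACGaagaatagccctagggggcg
The element began 201 bases before the start in Ero1b, 145 in Canx, 126 in Creld2, 105 in Dnajc3 and 65 in Hspa5. Creld2, a disulfide isomerase of the ER, read 202 and 360 in MIST1-null and 184 and 557 in wild-type cells, or 0.83 and 1.60. A match is a description of these letters and not a measured site.

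The E-box letters CATATG and CAGCTG, which bHLH factors can bind, were searched in the same windows, and neither overlapped the elements shown. CAGCTG stood in 24.8% of the 412 genes at least 2-fold higher that had a window, in 16.4% of the 421 lower ones, and in 17.5% of detectable genes. CATATG stood in 3.16%, 1.90% and 2.23% of them. Of the 25 ER folding genes with a window, 2 held CAGCTG and 0 held CATATG.

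Genes for the supply of amino acids were mostly close between cell types, with 3 large differences on the zymogenic side. Of 26 measured members 20 were detectable, 3 at least 2-fold higher and 0 lower, beside 4.90% and 4.80% of all detectable genes. The median was 0.34, or 0.32 over all 26, of which 18 lay above 0. Asns, asparagine synthetase, read 336 in MIST1-null neck and 1302 in zymogenic cells, a difference of 1.95, and 294 and 927 in wild-type cells. Slc7a5 and Slc3a2, which pair to form a carrier of large neutral amino acids, read 39.9 and 198, and 44.2 and 115, with differences of 2.31 and 1.38. With 32 added Slc7a5 had 1.68. Other carriers and enzymes of the list stood near 0, with Slc1a5 at -0.04, Psph at -0.18 and Trib3, a stress-induced pseudokinase, at 0.09. The aminoacyl-tRNA synthetases were closer together, from 0.62 for Iars to -0.37 for Mars1.

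Genes of regulated granule release were spread around 0. Of 26 measured members 19 were detectable, 2 at least 2-fold higher and 4 lower, beside 4.90% and 4.80% of all detectable genes. The median was -0.14, or -0.11 over all 26. Stxbp6, a SNARE-binding protein, read 398 in MIST1-null neck and 27.6 in MIST1-null zymogenic cells, but 383 and 272 in wild-type cells. Its difference was -3.85 in MIST1-null mice, or -2.85 with 32 added, and -0.50 in wild-type mice. Rab27b, a GTPase of secretory granules, read 246 and 112, a difference of -1.13, and its relative Rab27a read 83.1 and 32.9 against 47.3 and 69.8, or -1.34 and 0.56. With 32 added, Rab27a had -0.83 in MIST1-null mice. Sytl2, which binds Rab27, had -2.29 in MIST1-null mice, or -1.35 with 32 added, and -2.19 in wild-type mice. On the zymogenic side were Snap25, a SNARE of neurons and endocrine cells, at 1.84 and Syt7, a calcium sensor, at 1.04. Both read under 43.7 in neck cells, and with 32 added they had 0.96 and 0.57, under 2-fold.

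Genes reported elsewhere as activated by MIST1, a list recalled from work on secretory cells, gave small differences without it. Of 8 measured members 5 were detectable, and 0 of them reached 2-fold in either direction. With 4.90% and 4.80% of all detectable genes at 2-fold, a count of 0 of 5 is near the background and no result about these members. The median was -0.19 in MIST1-null and 0.89 in wild-type mice, and -0.17 and 0.74 over all 8. Copz2, a coat protein of transport vesicles, read 129 and 113 in MIST1-null and 133 and 396 in wild-type cells. Mib1, a ubiquitin ligase, read 81.5 and 104 against 72.8 and 158, and Ccpg1, a receptor for ER turnover, read 227 and 204 against 213 and 374. For all 3 genes the wild-type zymogenic array was the highest of the 4, and the MIST1-null zymogenic array read nearer to the neck arrays than to it. Differences were -0.19 and 1.57 for Copz2, 0.36 and 1.12 for Mib1, and -0.16 and 0.81 for Ccpg1. Cela1, an elastase, had -0.44 and -0.45. Whether the list differs between the pairs was not tested.

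Transcription factors of gastric epithelium were mostly lower in MIST1-null zymogenic cells or near 0. Of 36 measured members 27 were detectable, 8 at least 2-fold lower and 2 higher, with a median of -0.15, or -0.09 over all 36. Creb3l4, a factor held in the ER membrane, read 317 in neck and 12.3 in zymogenic cells, a difference of -4.69, or -2.98 with 32 added, and -4.72 in wild-type mice. Klf5 and Foxq1, a Krüppel-like and a forkhead factor, read 469 and 64.6, and 1076 and 173, with differences of -2.86 and -2.63. Sox9, a factor of progenitor and duct-like cells, read 1237 and 407 in MIST1-null cells and 803 and 388 in wild-type cells, so that both neck arrays lay above both zymogenic arrays. The epithelial factors Grhl2, Hnf4a and Ehf had -1.55, -1.29 and -1.20, and Grhl2 had -0.98 with 32 added. Higher in zymogenic cells were Msx2, a homeobox factor, at 34.8 and 376, a difference of 3.43, or 2.61 with 32 added, and Creb3l2, a relative of Creb3l4, at 24.7 and 69.2. Msx2 had 3.67 in wild-type mice, while Creb3l2 had 1.48 in MIST1-null mice, 0.83 with 32 added and -0.32 in wild-type mice. Ppargc1a, a coactivator of mitochondrial genes, read 355 and 696 against 213 and 106, so that its difference was 0.97 in MIST1-null and -1.01 in wild-type mice.

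**Figure D3:**
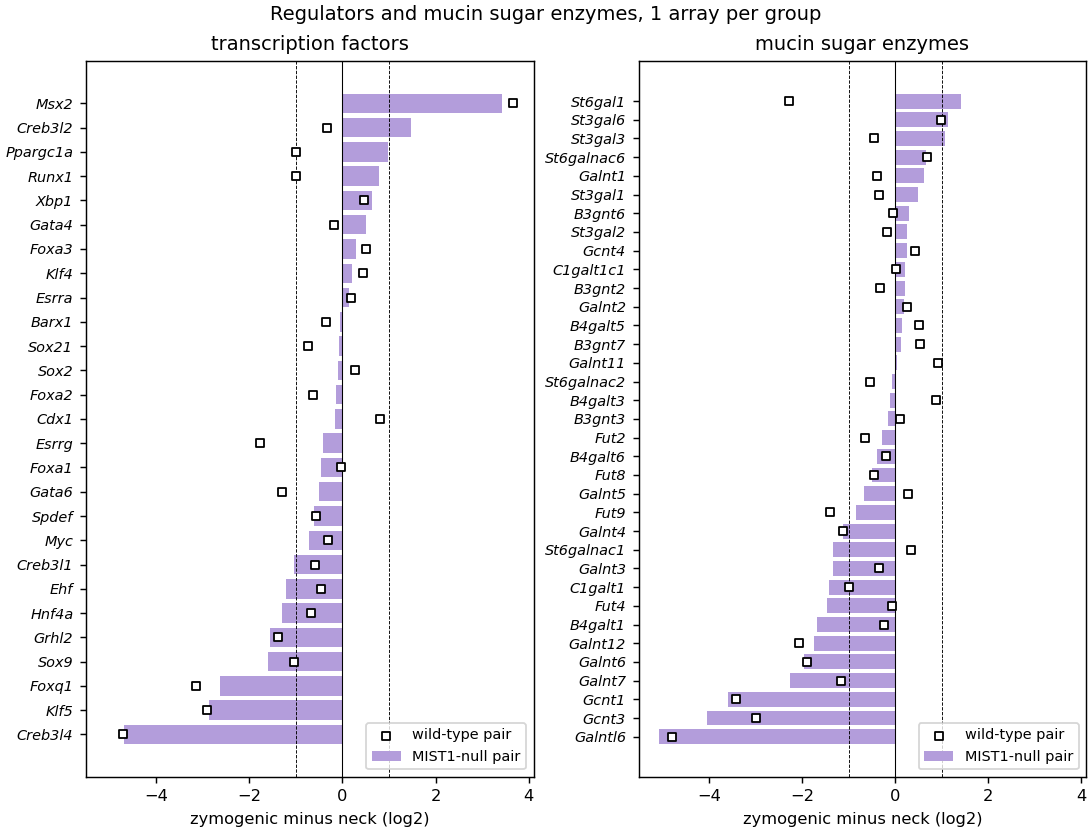
Log2 differences, zymogenic minus neck, of the detectable transcription factors (left) and mucin sugar enzymes (right), with bars for the MIST1-null pair, open squares for the wild-type pair and dashed lines at 2-fold. Bars and squares lie close together for Creb3l4 (-4.69 and -4.72) and Klf5 (-2.86 and -2.90), and on opposite sides of 0 for St6gal1 (1.42 and -2.29).

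Signals of growth factors and stem cells held a few large differences among many small ones. Sostdc1, a secreted inhibitor of BMP and Wnt signals, read 41.5 in MIST1-null neck and 982 in zymogenic cells, a difference of 4.56, or 3.79 with 32 added, and 135 and 1112 in wild-type cells. Nog, a further BMP inhibitor, read 32.9 and 78.3, a difference of 1.25, or 0.76 with 32 added, and -0.22 in wild-type mice. The products of Id genes block bHLH factors, and BMP signals can induce these genes. Id4 and Id2 lay on the neck side, at 375 and 67.1, and 339 and 127, with differences of -2.48 and -1.41. Id3 had -0.31, and Id1, under 43.7 in both MIST1-null arrays, had -0.23. Other BMP genes of the list went both ways, with Msx2 at 3.43, or 2.61 with 32 added, Smad6 at 0.30, and Smad7 and Msx1 at -0.06. Of 26 measured members of the BMP and EGF list 19 were detectable, with a median of 0.02, or -0.06 over all 26. At least 2-fold higher were 3 of the 19 and 3 were lower, beside 4.90% and 4.80% of all detectable genes. Lgr5, a Wnt pathway receptor found on chief cells of the gland base, read 63.2 and 168 in MIST1-null and 32.8 and 242 in wild-type cells, or 1.41 and 2.89. Prom1, a surface protein of progenitor cells, read 590 and 201 against 465 and 355, or -1.55 and -0.39. Of 17 measured members of the stem cell and Wnt list 15 were detectable, with a median of 0.22, or 0.21 over all 17. At least 2-fold higher was 1 of the 15 and 2 were lower, beside 4.90% and 4.80% of all detectable genes.

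Mitotic genes were lower in MIST1-null zymogenic cells. Of 31 measured members 19 were detectable, 11 at least 2-fold lower and 0 higher, and the median was -1.48, or -0.88 over all 31, of which 29 lay below 0. Among detectable members that also reached the median in zymogenic cells, the median was -0.26. Plk1, a mitotic kinase, read 387 in neck and 8.75 in zymogenic cells, a difference of -5.47, or -3.36 with 32 added. Birc5, survivin, read 318 and 50.4, a difference of -2.66, Top2a, a topoisomerase of dividing cells, read 164 and 19.99, a difference of -3.03, and Mki67, a mark of cycling cells, read 63.6 and 15.4, a difference of -2.05. With 32 added Top2a had -1.91 and Mki67 -1.01. In wild-type mice these 4 genes had -4.83, -3.86, -2.05 and -1.63. The list summed to 2335 in MIST1-null neck, 902 in MIST1-null zymogenic, 2060 in wild-type neck and 953 in wild-type zymogenic cells. DNA replication genes had a median of -0.61 over 22 detectable members, or -0.59 over all 26, with 5 at least 2-fold lower and 0 higher, among them Mcm6 at 302 and 123, a difference of -1.30. In pooled tissue, fewer cells of a type and less RNA per cell cannot be told apart.

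Genes linked to metaplasia, the mucous change of injured gastric glands, formed a short list here. Of 9 measured members 6 were detectable, 2 at least 2-fold lower and 0 higher, beside 4.80% and 4.90% of all detectable genes. The median was -0.66, or -0.11 over all 9. Wfdc2, a secreted protein of such glands, read 369 in MIST1-null neck and 29.6 in MIST1-null zymogenic cells, and 119 and 40.6 in wild-type cells. Its difference was -3.64, or -2.70 with 32 added, and -1.55 in wild-type mice, with the MIST1-null neck array the highest of the 4. Clu, clusterin, read 1391 and 1088, a difference of -0.35. Sox9, also on this list, had -1.6, and Muc4, a mucin and the 1 detectable member above 0, had 0.67.

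Endocrine genes took the first 3 places among genes that reached the median in both MIST1-null arrays. Chgb and Chga, the granins of hormone granules, read 98.0 and 1757, and 76.4 and 1166, with differences of 4.16 and 3.93, and Sst, somatostatin, read 251 and 2686, a difference of 3.42. In the wild-type pair these genes had 2.44, 2.05 and 1.23, with higher neck values of 225 for Chgb, 217 for Chga and 885 for Sst. Of 18 measured genes of the endocrine granule list 15 were detectable, 11 at least 2-fold higher and 0 lower. The median was 1.58, or 1.29 over all 18, 0.90 with 32 added and 0.74 over those at the median in both arrays. Scg2, Scg3, Pcsk1, Cpe, Slc18a2, Rab3c and Resp18 read under 43.7 in neck cells and passed only through the zymogenic array. With 32 added, Scg2, Scg5, Pcsk1, Cpe, Syp and Rab3c fell under 2-fold. The list sum went from 868 in neck to 4310 in zymogenic cells of MIST1-null mice, and from 1258 to 3342 in wild-type mice. Hormones were uneven. Ghrl, ghrelin, read 3214 and 6972 in MIST1-null and 4371 and 4428 in wild-type cells, or 1.12 and 0.02, and Hdc, the histamine-forming enzyme, read 15.6 and 164, a difference of 3.39, or 2.04 with 32 added. Gast and Pyy, the hormones gastrin and peptide YY, read 47.7 and 47.6, and 61.8 and 59.6. The hormone list had 4 of 6 detectable members at least 2-fold higher and 0 lower, a median of 1.11, or 0.03 over all 12 measured, and sums of 3768 and 10156 against 5597 and 6978 in wild-type cells. Of 11 measured endocrine transcription factors 0 of the 6 detectable ones reached 2-fold, with a median of 0.48, or 0.63 over all 11, and Isl1 read 208 and 219. With 4.90% and 4.80% of all detectable genes at 2-fold, a count of 0 of 6 is near the background and no result about these factors. All 11 lay above 0.

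Connective tissue, muscle and leukocyte genes ran the same way as the endocrine genes. In the fibroblast and matrix list, 22 of 23 measured members were detectable, 11 at least 2-fold higher and 0 lower. The median was 1.24, or 0.90 over all 23 and 0.79 over those at the median in both arrays. Dcn, the matrix protein decorin, read 74.3 in MIST1-null neck and 479 in zymogenic cells, and Vim, the filament protein vimentin, read 51.0 and 336, with differences of 2.69 and 2.72. S100a4, found in fibroblasts and leukocytes, had 4.01, or 2.45 with 32 added, while the collagen genes Col1a1 and Col1a2 had 0.15 and 0.90. The list summed to 1086 and 3516 in MIST1-null cells, and to 1415 and 2887 in wild-type cells. Smooth muscle genes had a median of 0.95 over 13 detectable and also over all 15 measured members. Over those at the median in both arrays it was 1.43. Of the detectable members 6 were at least 2-fold higher and 0 lower. Acta2, smooth muscle actin, read 33.1 and 246, a difference of 2.89, or 2.09 with 32 added. Their sums were 1570 and 2479 in MIST1-null and 1619 and 2480 in wild-type cells. Leukocyte genes had 8 of 15 detectable members at least 2-fold higher and 0 lower, with a median of 1.06, or 0.55 over all 24 measured and 0.43 over those at the median in both arrays, and sums of 738 and 1281 against 965 and 1469. Lyz2, lysozyme of macrophages, read 9.06 and 74.6, a difference of 3.04, or 1.38 with 32 added. Of 14 measured endothelial genes 7 were detectable, with a median of 0.46, or 0.28 over all 14. At least 2-fold higher was 1 of them, beside 4.90% of all detectable genes. No member of any of these lists lay at the floor of 1 in any array, and the part of these cells in the other differences was not tested.

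**Figure D4:**
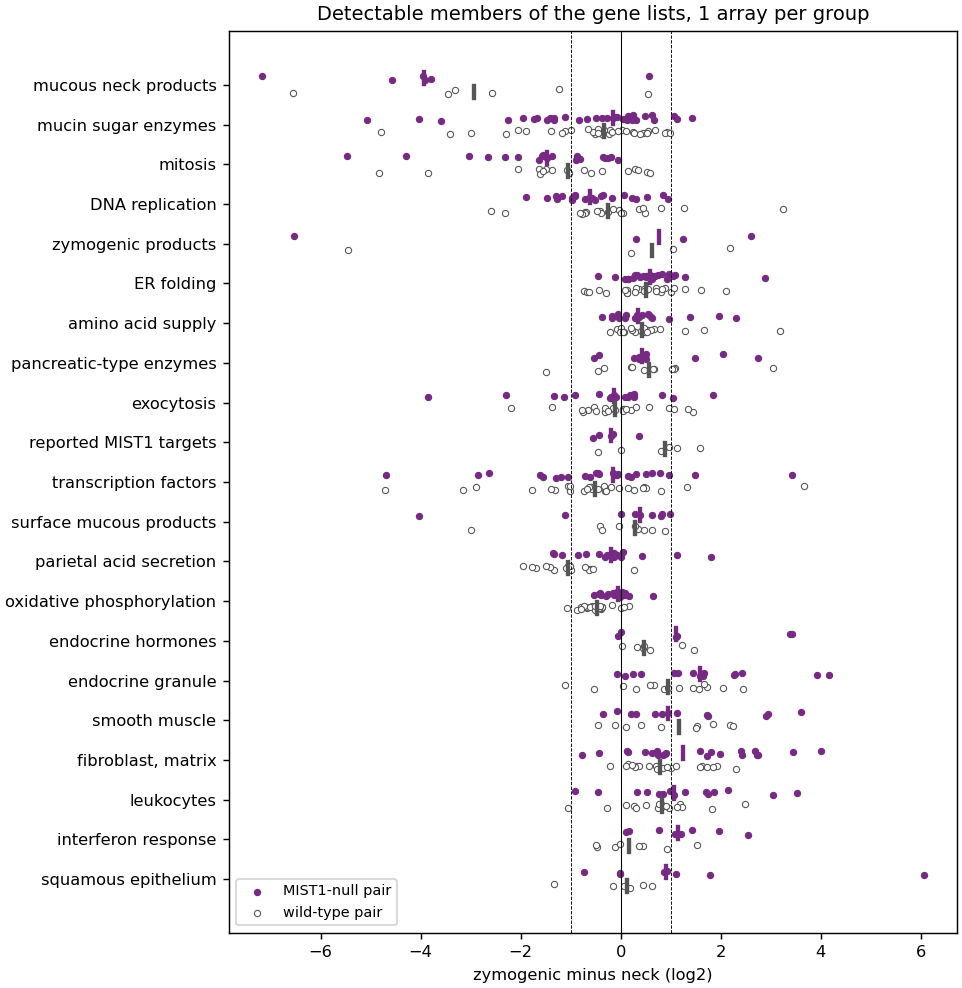
Each row is 1 gene list, each point 1 detectable member, with the log2 difference, zymogenic minus neck, on the horizontal axis, filled for the MIST1-null pair and open for the wild-type pair. Short bars are medians and dashed lines mark 2-fold. MIST1-null medians run from -3.94 for mucous neck products to 1.58 for endocrine granule genes, and reported MIST1 targets sit at -0.19 against 0.89.

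Markers of parietal and surface mucous cells, the other main epithelial cells of the gland, had medians nearer 0 than those of endocrine granules or fibroblasts. All 16 genes of acid secretion by parietal cells were detectable, with a median of -0.20 in MIST1-null and -1.05 in wild-type mice. Atp4a, the catalytic subunit of the proton pump, read 3932 and 3955 in MIST1-null cells and 3514 and 2278 in wild-type cells, so that the wild-type zymogenic array stood alone as the low one. The list summed to 13593 and 11109 in MIST1-null cells and to 12303 and 6375 in wild-type cells. Some members had larger differences, with Car2, a carbonic anhydrase, at 1265 and 491, a difference of -1.36, and Cckbr, the gastrin receptor, at 18.1 and 63.4, a difference of 1.81, or 0.93 with 32 added. Surface mucous cell genes had a median of 0.39 over 9 detectable and also over all 11 measured members, with sums of 7735 and 11455 in MIST1-null and 7794 and 9666 in wild-type cells. Of the detectable ones 0 were at least 2-fold higher and 2 lower, beside 4.90% and 4.80% of all detectable genes. The 2 lower ones were Gcnt3, at -4.04, or -2.80 with 32 added, and Vsig1, at 188 and 87.1, a difference of -1.11. Gkn2, a gastrokine of surface cells, read 911 and 1616, a difference of 0.83, and Muc5ac, the surface mucin, read 53.2 and 69.8. Genes of stratified squamous epithelium, which lines the forestomach, had 3 of 8 detectable members at least 2-fold higher and 0 lower, with a median of 0.90, or 0.73 over all 17 measured and -0.01 over those at the median in both arrays. Lgals7, a galectin of that epithelium, read 4.58 and 304 in MIST1-null cells and 122 and 48.4 in wild-type cells. Its difference was 6.05, or 3.20 with 32 added, and Sprr1a, a cell envelope protein, had 1.79. The list summed to 733 and 1186, and to 903 and 905 in wild-type cells. The part of these cells in the differences named here was not tested.

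Further genes with high values on the zymogenic side included several of the secretory path, beside others. The 15 largest differences among genes at the median in both arrays also held Necab1 (2.97) and Ptger3 (2.73). Tpm2 (2.95) of the smooth muscle list and Mgp (2.75) of the fibroblast list were among them too. Tmed6, of a family of cargo receptors between ER and Golgi, read 83.5 in MIST1-null neck and 596 in zymogenic cells, a difference of 2.84. Tent5c, which lengthens the poly(A) tails of mRNAs for secreted proteins, read 109 and 756, a difference of 2.79, and Furin, a protease that cleaves proproteins in the Golgi, read 149 and 1023, a difference of 2.78. Nupr1, a stress-induced nuclear protein, read 667 and 4614, a difference of 2.79. The wild-type pair had 2.26, 2.11, 1.36 and 1.72 for these 4 genes. Nrn1, neuritin, read 197 and 1420, a difference of 2.85, and Fkbp11, a prolyl isomerase of the ER, read 48.6 and 248, a difference of 2.35. On the neck side, Cfi, complement factor I, read 1164 and 73.6, a difference of -3.98, Golm1, a Golgi membrane protein, read 1470 and 100.4, a difference of -3.87, and Erlin1, an ER membrane protein of lipid regulation, read 1643 and 130, a difference of -3.66. Mt2, a metallothionein that binds zinc, read 1046 and 93.9, a difference of -3.48, and Hmgb2, a chromatin protein of dividing cells, read 746 and 127, a difference of -2.55.

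The pairs of both genotypes were set side by side over the 10165 genes detectable in each, and they share no array. At least 2-fold higher in the MIST1-null pair but under 2-fold in the wild-type pair were 235 genes, or 2.31%, and at least 2-fold lower were 240, or 2.36%. Most of these lay on the same side in wild-type mice by a smaller step, namely 167 of the 235 and 174 of the 240. At least 2-fold in opposite directions were 25 genes, or 0.246%, of which 13 were higher in MIST1-null zymogenic cells. These classes depend on low values, since with 32 added they held 107, 104 and 1 genes. With both values of each pair at the median, 93 and 114 genes were apart in the MIST1-null pair alone and 4 in opposite directions. The reverse class, 2-fold in wild-type mice alone, held 290 higher and 496 lower of the 10165 genes. Both pairs reached 2-fold in the same direction at 188 higher and 206 lower genes, or 95 and 103 with 32 added. None of these counts was tested, and with 1 array per group a gene can fall into a class by the noise of 1 array.

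Genes with the largest gap between the pairs, among those at the median level in all 4 arrays, included several in which 1 array stood alone. Tmem50b, a membrane protein, read 318 and 521 in MIST1-null cells and 366 and 52.9 in wild-type cells, and Tmx2, a thioredoxin-related membrane protein, read 391 and 461 against 325 and 73.5. In both, the wild-type zymogenic array was the low one, and the MIST1-null differences were 0.71 and 0.24. Blm, a DNA helicase, read 50.4 and 96.9 against 54.0 and 515, so that the wild-type zymogenic array was the high one. N4bp2 went opposite ways, at 334 and 83.8 in MIST1-null and 55.5 and 230.2 in wild-type cells, or -1.99 and 2.05. Sst and Tff2 belong to the same ranking, with gaps of 2.19 and -2.56.

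**Figure D5:**
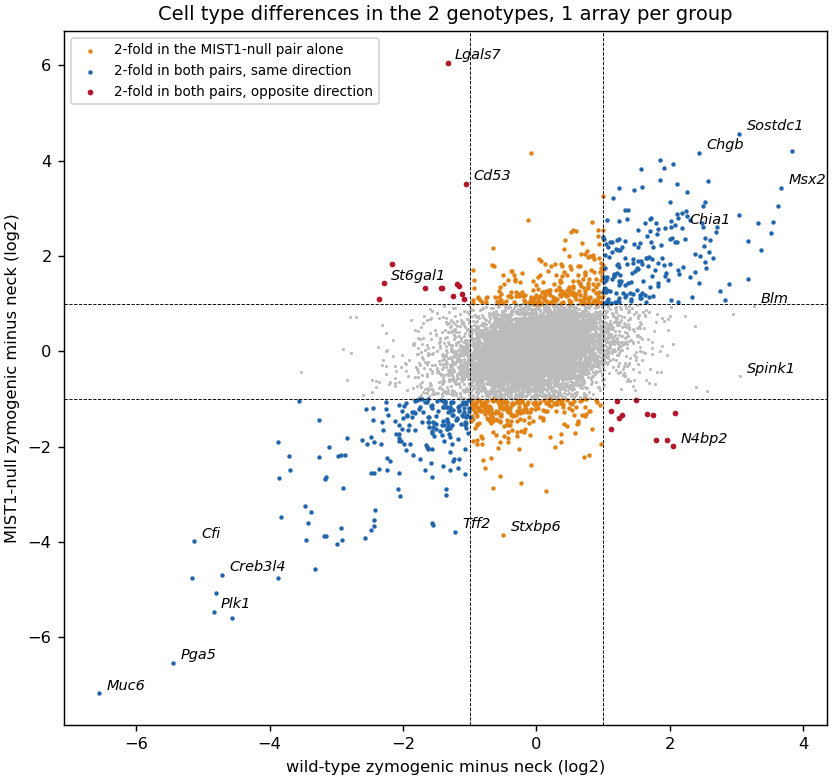
Each point is 1 of the 10165 genes detectable in both pairs, with the wild-type difference on the horizontal and the MIST1-null difference on the vertical axis, both log2 zymogenic minus neck, and dashed lines at 2-fold. Blue points reach 2-fold in both pairs in the same direction, orange points in the MIST1-null pair alone, and the 25 red points in opposite directions. Muc6, Pga5 and Plk1 lie far down in both pairs, and Stxbp6 (-3.85 and -0.50) in the MIST1-null pair alone.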

How the data were processed

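RNA of 4 groups, 1 array each, was hybridised to Affymetrix Mouse Gene 1.0ST arrays. The authors deposited linear intensity values per probe set, which dChip produced per the series design text. How background was corrected, probes summarised and arrays scaled was not stated in any source used here. No detection calls were used, and precision is limited by the number of arrays.

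Of 35512 probe sets, the platform annotation gave 1 gene to 21789, several to 1621 and did not list 12102. Of the first kind, 21698 matched RefSeq by Entrez identifier and 0 symbols changed. A gene with several probe sets (999 of 19938) was read from the one with the highest mean. Values were log2 with a floor at 1. No test was possible with 1 array per group. The code was tested on simulated data. Python 3.11.15, pandas 2.3.3, numpy 2.4.6, statsmodels 0.14.6 and matplotlib 3.10.9 were used.

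The text names members of 34 gene lists (625 of 667 entries on the array) and ranked genes, but not all of either. One ranking held the 15 largest MIST1-null differences each way among genes at the median in both arrays. The others held the 10 largest gaps each way between the pairs and the 10 largest differences each way shared by both. Those took genes at the median in all 4 arrays. Rankings leave out predicted, olfactory, vomeronasal and small RNA symbols and Bhlha15. Members, lists and rules were chosen with earlier results of these data known. Alternatives were a pseudocount of 32, a floor of 16, quantile normalization, median and lowess centring, 3 other filters on low values and the mean over probe sets.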

Additional observations from a re-analysis of the deposited data

Results flagged for a closer look

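The genes here were at least 2-fold apart between cell types in both genotypes but in opposite directions, and each is a listed gene or was named by rank. With 1 array per group the difference between the genotypes was not tested. The gap is the MIST1-null minus the wild-type difference. Lgals7 had the widest gap, 7.38, with 6.05 in MIST1-null and -1.33 in wild-type mice, or 3.20 and -0.94 with 32 added to the intensities, and its MIST1-null neck value of 4.58 was the low one of the 4. Cd53, a leukocyte tetraspanin, had a gap of 4.57, from 3.52 and -1.05, or 1.44 and -0.76 with 32 added, with 6.30 in MIST1-null neck cells against 56.7 to 118 in the others. St6gal1, a sialyltransferase, had 3.71, from 1.42 and -2.29, and read 31.6 and 84.8 in MIST1-null and 73.5 and 15.0 in wild-type cells. With 32 added, its MIST1-null difference was 0.88, under 2-fold. Bcas3 had a gap of 2.54, from 1.38 and -1.16, and Diaph2 had 2.4, from 1.15 and -1.25. With 32 added Bcas3 had 1.10 and -0.80, and Diaph2 had 0.85 and -0.86. N4bp2 had -4.05, from -1.99 and 2.05, and Mphosph10 had -2.50, from -1.02 and 1.49. With 32 added N4bp2 had -1.66 and 1.58, still 2-fold in both genotypes, and Mphosph10 had -0.74 and 1.26.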

How the results depend on the processing

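With a pseudocount of 32, 215 genes were at least 2-fold higher and 222 lower in MIST1-null zymogenic cells, and 211 genes were 2-fold apart in MIST1-null mice alone, against 475 as reported. With both values at the median these counts were 174, 226 and 207, and with the filter at the 75th percentile they were 313, 348 and 225. With no filter, 1035 genes were 2-fold apart in MIST1-null mice alone. Genes apart in opposite directions, 25 as reported, were 1 with the pseudocount, 4 with both values at the median and 72 with no filter. The endocrine granule median of 1.58 became 0.90 with the pseudocount and 0.74 with both values at the median. The mitosis median of -1.48 became -0.74 with the pseudocount, -0.88 with no filter, -3.03 at the 75th percentile and -0.26 with both values at the median. Medians of 6 other lists moved by a log2 step of at least 0.585, which is 1.5-fold. Steps under that size are not counted, and with the pseudocount fibroblasts gave 0.67, smooth muscle 0.50, leukocytes 0.65 and interferon genes 0.67. The 75th percentile filter gave 2.25 for hormones, 2.32 for smooth muscle and 2.41 for fibroblasts, no filter gave 0.03 for hormones and 0.49 for interferon genes, and both values at the median gave 0.43 for leukocytes and -0.01 for squamous genes. Median centring gave 461 higher and 670 lower genes, and quantile normalization 504 and 546. No paired analysis was possible because each group was 1 array. Of the values of 500 genes under 6 alternatives, 73 moved by that log2 step or more and 2927 did not, and none of those called 2-fold turned direction. With 1 array per group no replicate could be left out, and low intensities limit the size of most large differences.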

Other observations

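Other gene groups of the MIST1-null pair are given as values. Interferon response genes had 8 detectable of 19 measured members, 5 at least 2-fold higher in zymogenic cells and 0 lower, with a median of 1.15, or 0.49 over all 19. Ifitm3, a membrane protein that blocks virus entry, read 123 in neck and 719 in zymogenic cells, and 318 and 911 in wild-type cells. Ifit1 read 17.7 and 69.3, a difference of 1.97, or 1.03 with 32 added, in MIST1-null and 36.4 and 15.0 in wild-type cells. Immediate early and heat shock genes had 13 detectable of 17 measured members and a median of 0.49, or 0.42 over all 17, with Jun at 61.0 and 199 and Hspa8 at 2433 and 1686. Both lists also hold genes that many cell types express.

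Lysosome genes had a median of 0.04 over 21 members, with Ctss, a cathepsin of leukocytes, at 33.3 and 124, a difference of 1.90, or 1.26 with 32 added. Oxidative phosphorylation genes had -0.05 over 22 members in MIST1-null and -0.47 in wild-type mice. Ribosomal protein genes had -0.23 over 17 members and keratins -0.31 over 6. Cholesterol synthesis genes had -0.17 over 14 detectable members, or -0.02 over all 19, and Notch pathway genes 0.36 over 11, or 0.20 over all 22. Claudins had no settled direction, with 0.45 over 7 detectable members, 0.18 over all 14, -0.09 with median centring and -0.13 with both values at the median. The red cell gene Slc4a1 read 52.3 and 55.6.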
